A study of Mus musculus with 23 samples.

Results

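Lamin A/C KO (knockout) gastrocnemius muscle was compared with control muscle on day 3 after injection, across all genes measured. The comparison used 5 of the series' 23 Affymetrix arrays: 3 titled as lamin A/C KO on day 3 and 2 titled as the control of the lamin A line on day 3. The series was designed to follow staged degeneration and regeneration of muscle in mice that lack emerin or lamin A/C. Its other arrays hold control, lamin A/C KO and emerin KO muscle on days 0 and 4 and emerin KO muscle on day 3, where day 0 is muscle that had received no injection (described as 0 days after injection for the lamin A/C KO).

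Each array measured total RNA of gastrocnemius muscle of mouse. The labels do not name the KO allele, the strain, the age, the agent injected, the genotype behind "control" or the number of animals per array. Whether the arrays of a group came from separate mice is not stated either. Each p-value rests on the spread between arrays within groups, pooled over all 23 arrays in 9 groups and not over the 5 day 3 arrays alone. That spread may be technical.

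A-type lamins, the products of Lmna, are intermediate filament proteins that form a meshwork under the inner nuclear membrane. They bind emerin and other membrane proteins, anchor heterochromatin and interact with the retinoblastoma protein, and mutations in LMNA or EMD cause Emery-Dreifuss muscular dystrophy. After injury, necrotic myofibers are cleared by neutrophils and macrophages while satellite cells proliferate, differentiate under Myod1 and myogenin, and fuse into new fibers that first make embryonic and neonatal myosins.

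The day 3 arrays carried these features. Myog, the gene of myogenin, read 6528, 4867 and 4868 in the KO arrays (replicates 1, 2 and 3, the order used throughout) and 4263 and 3639 in the control arrays (replicates 1 and 2), against 447 to 953 on day 0. Myh3, embryonic myosin heavy chain, read 5213 to 8124 in the KO and 7550 to 8290 in the control arrays, against 318 to 684 on day 0. Cd68, a lysosomal protein of macrophages, read 2777 to 5045 across the 5 arrays against 242 to 363 on day 0. The adult muscle genes Acta1 (skeletal actin) and Ckm (muscle creatine kinase) remained bright, at 14513 to 17919 and 6405 to 13101. All values are MAS5 signals, on a linear scale, with each array set to a trimmed mean of 500.

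Lmna itself differed most. Of its 4 probe sets, the brightest, 1421654_a_at, read 53, 56 and 75 in the KO arrays and 3866 and 4119 in the control arrays. No KO array reached a signal of 100, the minimum used here for a measured level, so the KO level is a bound: Lmna was at least 39.9-fold lower in the KO, set against a floor of 100. The fitted difference was -5.44 ± 0.20 (SE, log2 of signal + 32) with an adjusted p of 5.8e-14 (limma, Benjamini-Hochberg over 11164 genes). The same probe set read 57 to 109 in the KO on day 0 and 60 to 81 on day 4, while the control rose from 857 and 923 on day 0 to its day 3 level. It also read 4874, 5334 and 3305 in emerin KO muscle on day 3.

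The 4 probe sets of Lmna did not move together. The second, 1425472_a_at, read 902, 1038 and 1039 in the KO and 2316 and 2305 in the control arrays, a difference of -1.20 ± 0.20 (log2, adjusted p = 0.031 in a limma fit of every probe set). The least bright, 1452212_at, went the other way, at 311, 403 and 456 in the KO against 31 and 11 in the control arrays. Its difference was 3.00 ± 0.46 (adjusted p = 0.017, same fit). Both control arrays lay under the floor of 100, so this probe set was at least 3.90-fold higher in the KO. The probe set 1426868_x_at read 307, 457 and 619 against 224 and 166, 1.08 ± 0.34 with an adjusted p of 0.50. In each of these pairs the KO and control arrays did not overlap. The KO thus read lower than the control on 2 of the 4 probe sets and higher on the other two by estimate, and which part of the transcript each one reads is not stated by the annotation used.

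**Figure D1:**
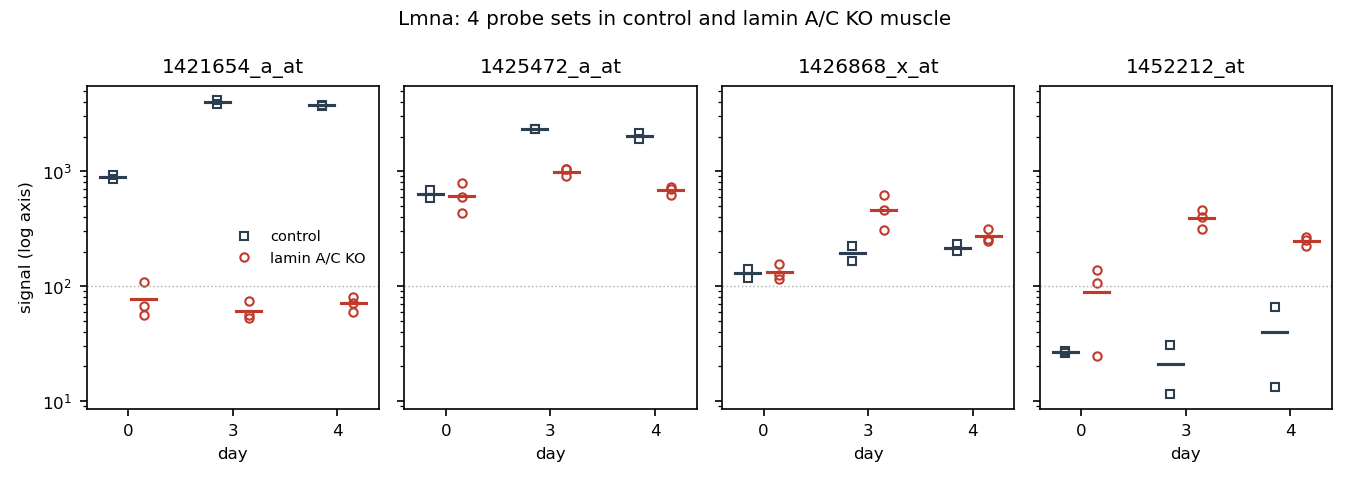
Signal of the 4 Lmna probe sets (log axis) by day, with 1 symbol per array, squares for control, circles for lamin A/C KO, a line at each group mean and a dotted line at the floor of 100. On day 3 the KO arrays lie at 53 to 75 against 3866 and 4119 on 1421654_a_at, and at 311 to 456 against 11 and 31 on 1452212_at.

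Beyond Lmna, 2 genes fell in the KO on day 3 and no gene rose. The 3 genes called made up 0.0269% of 11164 genes tested (limma, adjusted p under 0.05), with 0 higher and 3 lower. At an unadjusted p under 0.05 there were 809 genes, 7.25% of those tested, and the KO and control arrays did not overlap for 3452 genes, 30.9%. The median difference over all genes was -0.04 (log2), and 43.6% of genes had a positive difference. The median 95% interval reached 0.505 to either side of the estimate. For 8462 genes (75.8%) the whole interval lay within 1 log2 unit of 0 on the fitted scale. For the other genes the interval still held a difference of 1 log2 unit or more. The fitted scale adds a constant to each signal and so understates changes of dim genes. An interval within 1 log2 unit therefore does not limit the signal of a dim gene to a 2-fold change. Of the genes tested, 1264 lay under the minimum signal on the day 3 arrays and passed through arrays of other groups.

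Aspn encodes asporin, a small leucine-rich proteoglycan of the extracellular matrix that binds collagen and TGF-beta. Its signal was 798, 677 and 415 in the KO and 1471 and 1714 in the control arrays. The highest KO array lay well under the lower control array. The control mean was 2.53 times the KO mean, and the fitted difference was -1.34 ± 0.23 (95% interval -1.81 to -0.87, limma adjusted p = 0.026). A second probe set of Aspn, 1448421_s_at, read 858, 868 and 577 against 1694 and 1416, -1.01 ± 0.21 with an adjusted p of 0.11 in the fit of every probe set. The call held under 7 of 17 alternative settings, over which the difference ranged from -1.53 to -1.08 and the adjusted p from 0.012 to 0.34.

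The difference of Aspn passed on day 3 and not on days 0 or 4. On day 0 the KO arrays read 746, 583 and 711 and the control arrays 755 and 456, a difference of 0.19 ± 0.23. By day 4 they read 2350, 2542 and 2588 against 2205 and 1673, 0.37 ± 0.23, with every KO array above the control arrays. In the control, Aspn rose from day 0 to day 3 by 1.39 ± 0.25 (adjusted p = 0.00012). In the KO its day 3 minus day 0 difference was -0.14 ± 0.20 (limma adjusted p = 0.59) on this probe set, the brightest. The difference between days 3 and 0 in the genotype effect was -1.53 ± 0.32 with a limma adjusted p of 0.051. That between days 3 and 4 was -1.71 ± 0.32 with an adjusted p of 0.10, so neither passed. The second probe set, 1448421_s_at, read higher in the KO on day 3 (858, 868 and 577) than on day 0 (408, 553 and 468). Its genotype difference was 0.44 ± 0.21 on day 0 and -0.31 ± 0.21 on day 4.

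Cpe encodes carboxypeptidase E, which trims basic residues from prohormones and neuropeptides in secretory granules. It read 527, 690 and 630 in the KO and 1210 and 1472 in the control arrays, again without overlap. The control mean was 2.18 times the KO mean, and the difference was -1.08 ± 0.18 (95% interval -1.45 to -0.72, limma adjusted p = 0.023). Its second probe set, 1439437_x_at, was dim, at 121 to 195 in the KO and 120 and 203 in the control arrays, and differed by -0.03 ± 0.44. Cpe kept its call under 10 of 17 settings, with differences from -1.22 to -0.90 and adjusted p from 0.0020 to 0.34. Unlike Aspn, Cpe was high in muscle that had received no injection, at 4269, 4273 and 4544 in the KO and 3919 and 3969 in the control arrays on day 0. It fell to day 3 in both genotypes, by 1.54 ± 0.19 (log2, adjusted p = 1.6e-06) in the control and by 2.77 ± 0.16 (adjusted p = 1.1e-11) in the KO. The genotype difference on day 3 minus that on day 0 was -1.23 ± 0.25 (limma adjusted p = 0.041), and it passed in 9 of 22 alternatives. On day 4 the KO read 941, 965 and 1057 against 1463 and 1399, -0.52 ± 0.18 with an adjusted p of 0.89.

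**Figure D2:**
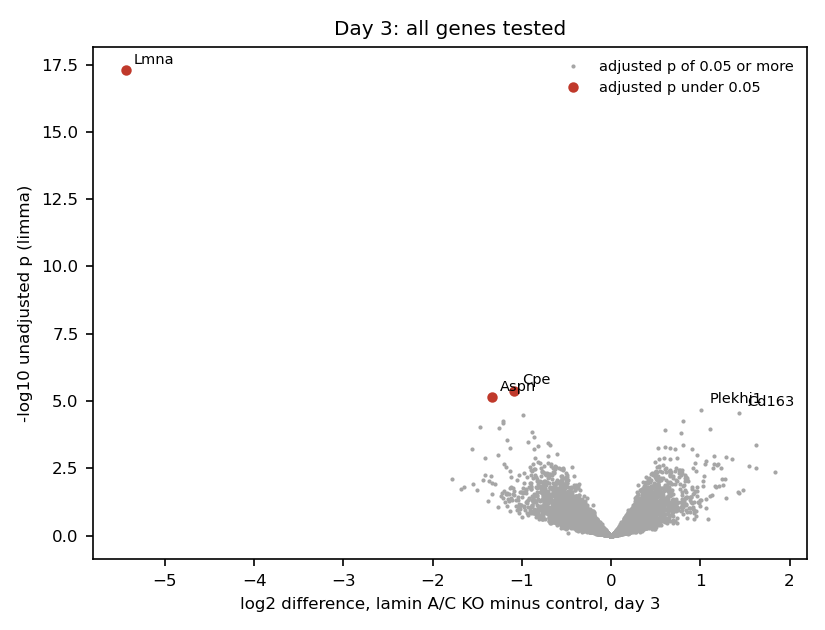
Difference on day 3 (x axis, log2, lamin A/C KO minus control) against -log10 of the unadjusted limma p (y axis) for each of 11164 genes. Lmna at -5.44, Aspn at -1.34 and Cpe at -1.08 are the 3 points past the adjusted threshold.

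Some single arrays decided calls. With control replicate 2 left out, Lmna alone of the 3 kept its call, and Hal, a histidine-degrading enzyme, was called higher at 3.46 (adjusted p = 0.0013, limma). Hal read 439, 481 and 812 in the KO and 22 and 479 in the control arrays, so its value rests on control replicate 1. With control replicate 1 left out, Cpe remained called while Aspn did not, and Gsn (gelsolin), Plekhj1, Rps25, Rpl3l and Tmod4 were added, 3 of them higher and 2 lower. Without KO replicate 3 the count was 1, Lmna. These genes outside the lists were named after their values were seen.

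Another 10 genes lay just outside the threshold, with adjusted p from 0.05 to 0.10, and were likewise chosen after their values were seen. Cd163, the haptoglobin-hemoglobin scavenger receptor of macrophages, read 343, 561 and 553 in the KO and 134 and 180 in the control arrays, 1.43 ± 0.27 (limma adjusted p = 0.060). Dmd, dystrophin, which links the fiber's cytoskeleton to the matrix, read 211, 183 and 140 against 397 and 362, -0.99 ± 0.19 (adjusted p = 0.063). A second Dmd probe set, 1448665_at, differed by -1.07 ± 0.32, and the remaining one lay under the minimum. On day 0 the first Dmd probe set differed by -0.47 ± 0.19 and 1448665_at by -1.03 ± 0.32, neither past the threshold. Plvap, a protein of endothelial diaphragms, read 1336, 2046 and 2076 against 775 and 843, 1.11 ± 0.23 (adjusted p = 0.098). In each of these the KO arrays on day 3 lay wholly on one side of the control arrays. The emerin KO arrays on day 3 read 548, 731 and 873 for Cd163, 159, 135 and 145 for Dmd and 1294, 1314 and 864 for Plvap.

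The remaining members of this group were Plekhj1 at 1.01, Atp6v1e1, a subunit of the vacuolar proton pump, at 0.80, and Msrb1, a methionine sulfoxide reductase, at 0.61, all higher in the KO by estimate. Inpp5j, an inositol phosphatase, differed by -1.22, the matricellular protein Ccn3 by -1.21 and the leukocyte protease inhibitor Serpinb1a by -1.25. The immunoglobulin gene Igkv9-120 read 62, 85 and 20 against 166 and 236, all KO arrays under the floor, and was thus at least 2.01-fold lower in the KO by estimate. Ccn3 had a like estimate on its second probe set, -0.94 ± 0.25, and differed on day 0 by -0.84 ± 0.24, not past the threshold. The dimmer probe sets of Atp6v1e1 differed on day 3 by -0.38 ± 0.66 and -0.10 ± 0.48 and that of Serpinb1a by -0.37 ± 0.53. Cd163 passed in 4 of 17 settings and Plekhj1 in 3. For each gene of this group the emerin KO arrays on day 3 lay on the same side of the control arrays as the lamin A/C KO arrays. These differences are thus not particular to the lamin A/C KO, and the part of the 2 control arrays in them was not tested.

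**Figure D3:**
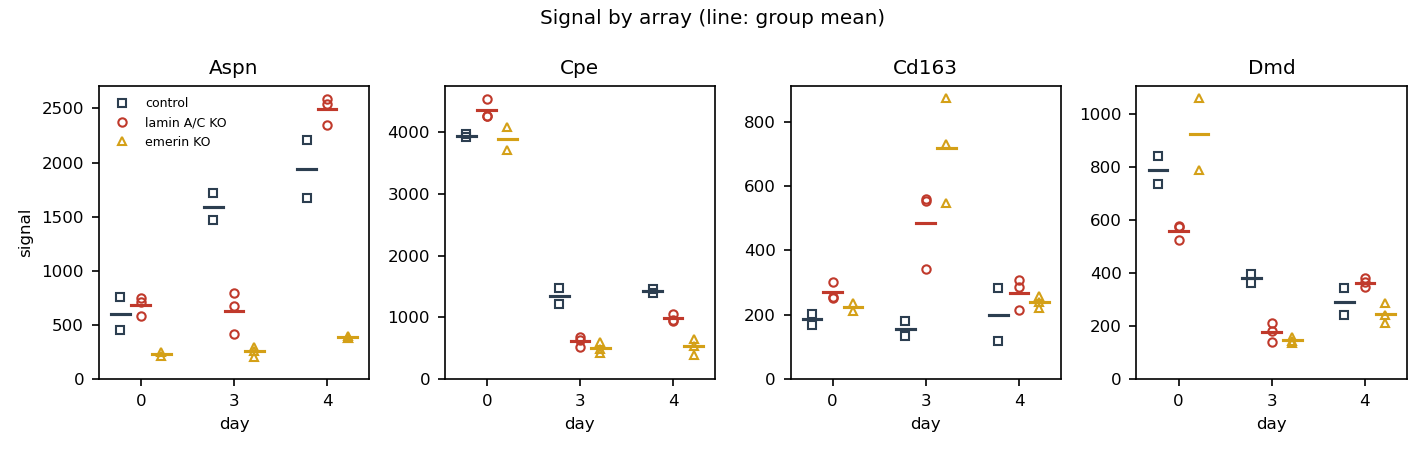
Signal per array (linear axis) of Aspn, Cpe, Cd163 and Dmd on days 0, 3 and 4 in control (squares), lamin A/C KO (circles) and emerin KO (triangles) muscle, with a line at each group mean. On day 3 the KO arrays lie below the control arrays for Aspn (415 to 798 against 1471 and 1714), Cpe and Dmd and above them for Cd163.

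The other proteins of the nuclear envelope were measured from a list of 21 genes on the array, all tested, of which Lmna alone passed and 20 did not. Their median difference was 0.02 (log2), beside -0.04 over all genes. Emd, emerin, read 871, 717 and 803 in the KO and 830 and 702 in the control arrays, 0.05 ± 0.27 (95% interval -0.51 to 0.61, adjusted p = 0.98). The B-type lamin genes Lmnb1 and Lmnb2 differed by 0.25 ± 0.17 and 0.39 ± 0.25, with every KO array above every control array but adjusted p of 0.81 and 0.79. Zmpste24, the protease that matures prelamin A, differed by 0.20 ± 0.16, and the LINC complex genes Sun1, Sun2 and Syne1 by -0.16, 0.02 and -0.03. Of the rest, Narf, a prelamin A-binding protein, had the most negative estimate at -0.76 ± 0.24 (adjusted p = 0.45), and Lemd2, a LEM domain protein, the highest at 0.43 ± 0.21 (adjusted p = 0.69). For 17 of the 21 genes the interval lay within 1 log2 unit of 0.

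The nuclear pore and transport list had a median of 0.02 with 0 of 31 genes called. Its pore protein Nup188 read 310, 310 and 259 against 154 and 62, 1.29 ± 0.35 with an adjusted p of 0.36. In the chromatin and heterochromatin list, 0 of 24 genes passed and the median was 0.08. There, Trim28, a corepressor of heterochromatin, differed by 0.45 ± 0.14 and the architectural protein Hmga2 by -0.74 ± 0.23, each with an adjusted p of 0.46.

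Regulators of the myogenic program did not pass. Among 30 genes of myogenic regulators and satellite cells, 0 were called, 15 had a positive and 15 a negative estimate, and the median was within 0.01 of 0. Myog differed by 0.44 ± 0.18 (95% interval 0.06 to 0.83, adjusted p = 0.60, limma), with all KO arrays above the control arrays. Msc, musculin, a repressor of myogenic bHLH factors, read 409, 476 and 256 against 828 and 615, -0.90 ± 0.29 (adjusted p = 0.46). Igf2, a growth factor of regenerating muscle, read 5387, 5193 and 4308 against 6878 and 7267, -0.51 ± 0.19 (adjusted p = 0.54).

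The Rb/E2F list, through which lamin A/C has been linked to cell cycle exit, had 0 of 31 genes called and 29 intervals within 1 log2 unit of 0. Ccnd3, the cyclin D of differentiating muscle, differed by 0.41 ± 0.17 and E2f5 by -0.50 ± 0.25. In the DNA replication list 29 of 37 genes had a positive estimate, beside 43.6% of all genes tested, and 0 were called. The list's median was 0.20 and ranged from 0.18 to 0.34 as each array was left out. Rpa2 and Rrm2 of this list differed by 0.65 ± 0.25 and 0.37 ± 0.16. On day 4 the same list's median was -0.07. In the mitosis list the median was 0.07 with 0 of 41 called.

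Of the 40 lists, genes of the fast contractile apparatus had the lowest median on day 3, a rank that they lost without control replicate 2. Of 29 genes of the fast contractile apparatus, 27 had a negative estimate, 15 an unadjusted p under 0.05 and 0 an adjusted p under 0.05 (limma). Over all genes tested, 6297 of 11164 had a negative estimate and 809, 7.25%, an unadjusted p under 0.05. The list's median was -0.49 on day 3, -0.29 on day 4 and -0.03 on day 0. The summed signal of the list was 132054, 135300 and 146323 in the KO arrays from lowest to highest, against 147428 and 209518 in the control arrays. The control arrays were thus far apart, and the lower one lay close to the highest KO array. The median was -0.14 without control replicate 2, above those of the erythroid (-0.29), sex-linked (-0.28), insulin and growth hormone (-0.21) and adipocyte (-0.15) lists, and -0.76 without control replicate 1. Ryr1, the calcium release channel of the sarcoplasmic reticulum, read 2093, 2057 and 2449 against 2912 and 4417, -0.70 ± 0.19 (limma adjusted p = 0.34). Myoz1, a Z-disc protein of fast fibers, read 702, 1111 and 1027 against 1296 and 2121, -0.81 ± 0.23 (adjusted p = 0.42). In bulk muscle, fewer surviving fibers and less RNA per fiber cannot be told apart.

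The list of embryonic and fetal muscle isoforms had 0 of 22 genes called. Its median was -0.17 on day 3, 0.52 on day 0 and 0.05 on day 4. Not every member rose after injury: 3 fell from day 0 to day 3 in the control and 5 in the KO, Cryab among them in both. Over all 11164 genes tested, 1580 fell in the control and 2189 in the KO, so these counts are not particular to the list. Myh8, neonatal myosin, read 1307, 1107 and 983 against 1754 and 1787, -0.64 ± 0.20 (adjusted p = 0.45). Cryab, a small heat shock protein of the Z-disc, read 4393, 4222 and 5105 against 2505 and 3580, 0.60 ± 0.15 (adjusted p = 0.22). Slow fiber genes had a median of -0.06, and their oxygen carrier Mb read 937, 1043 and 2056 against 2646 and 2453, -0.99 ± 0.44.

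Metabolic lists held no called gene. Oxidative phosphorylation, with 52 genes, had a median of -0.06 and 50 intervals within 1 log2 unit of 0. Glycolysis and glycogen had a median of -0.11, which ranged from -0.47 without control replicate 1 to 0.05 without control replicate 2. Its glycogen phosphorylase Pygm read 1007, 1170 and 1243 against 1329 and 3196. The medians of fatty acid oxidation, lipid synthesis and the insulin and growth hormone axis were -0.03, 0.12 and -0.24. In the last, Socs3, an inhibitor of cytokine signalling, read 1544, 1320 and 1295 against 887 and 586, 0.91 ± 0.23 (adjusted p = 0.22), and Ghr, the growth hormone receptor, differed by -0.44 ± 0.13.

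No immune gene list held a call. Of 33 macrophage genes, 27 had a positive estimate, beside 43.6% of all genes tested, and 0 passed. The list's median was 0.24 and ranged from 0.16 to 0.26 as each array was left out. The summed signal of the list was 125978, 129602 and 129758 in the KO and 113163 and 114255 in the control arrays, all far above 13984 to 22433 on day 0. Cd68 read 3887, 3990 and 5045 against 2793 and 2777, 0.61 ± 0.18 (limma adjusted p = 0.43). The macrophage markers Csf1r, Mpeg1 and Adgre1 differed by 0.25 ± 0.14, 0.18 ± 0.39 and -0.21 ± 0.21, with KO and control arrays that overlapped. Ctsk had the lowest estimate of the list, -0.42. The dendritic cell and MHC class II list summed to 11542, 12237 and 13355 against 7948 and 8546, with a median of 0.24 and 0 of 13 called. Its invariant chain Cd74 differed by 0.74 ± 0.20 and H2-Ab1 by 0.79 ± 0.26, with estimates on day 0 of 0.90 and 0.68.

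Chemokines and cytokines had a median of 0.24 with 24 of 34 positive, interferon response genes 0.24 with 25 of 31 positive, and complement genes 0.05. None of these genes passed. Over all genes tested, 43.6% were positive. Cxcl14 differed by 0.76 ± 0.24 and Itgb2, the common chain of leukocyte integrins, by 0.92 ± 0.28. Neutrophil and lymphocyte genes had medians of -0.04 and -0.05, with 7 of 14 and 8 of 18 positive, although Chil3, a chitinase-like protein of myeloid cells, read 626, 778 and 1699 against 478 and 320 (1.20 ± 0.34, adjusted p = 0.43). Lymphocyte markers summed to 4473 to 4553 in the KO and 4859 to 5316 in the control arrays, where 7 of 21 genes, Cd3d, Cd3e and Cd4 among them, lay under 100 on every day 3 array.

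Other cell types were measured beside these values. Endothelial and pericyte genes summed to 20233 to 21068 in the KO and 18201 to 19151 in the control arrays, with a median of 0.12. Adipocyte genes summed to 16599 to 19014 against 19799 to 20259, with a median of -0.22. The smooth muscle, Schwann cell and nerve, erythroid and sex-linked lists had medians of -0.20, 0.06, -0.27 and -0.21, on 8, 12, 5 and 4 genes, and the summed signals of the first 3 overlapped between the groups. Extracellular matrix and fibroblast genes had a median of -0.10 with 0 of 52 called. Among them Postn, periostin, read 8911, 8584 and 6325 against 12237 and 13642, -0.72 ± 0.23. The Gapdh 3'/5' ratio, which rises as RNA is degraded, was 1.21 to 1.64 in the KO arrays and 0.957 to 0.976 in the control arrays, without overlap. The part of this ratio, and of the shifts in macrophage, endothelial and adipocyte signal, in the differences above was not tested beyond a fit with the ratio as a covariate, which called Lmna, Cpe and Inpp5j.

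Signalling and stress lists had 0 members called in each, and their medians are given beside that of all genes, -0.04. The medians were -0.13 for the TGF-beta and BMP pathway, 0.07 for SRF and MRTF targets, 0.03 for immediate early and MAPK genes, 0.07 for p53 targets, 0.15 for the amino acid and ER stress response, 0.14 for heat shock and redox genes, 0.04 for denervation and atrophy and -0.08 for the circadian clock. Those of the cytosolic ribosome, ribosome biogenesis and the proteasome were 0.03, 0.15 and 0.02. Scaling to the median in place of the trimmed mean moved the median of all genes from -0.04 to 0.07, which turned the sign of small medians such as those of slow fiber, oxidative phosphorylation, glycolysis, lymphocyte and extracellular matrix genes.

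**Figure D4:**
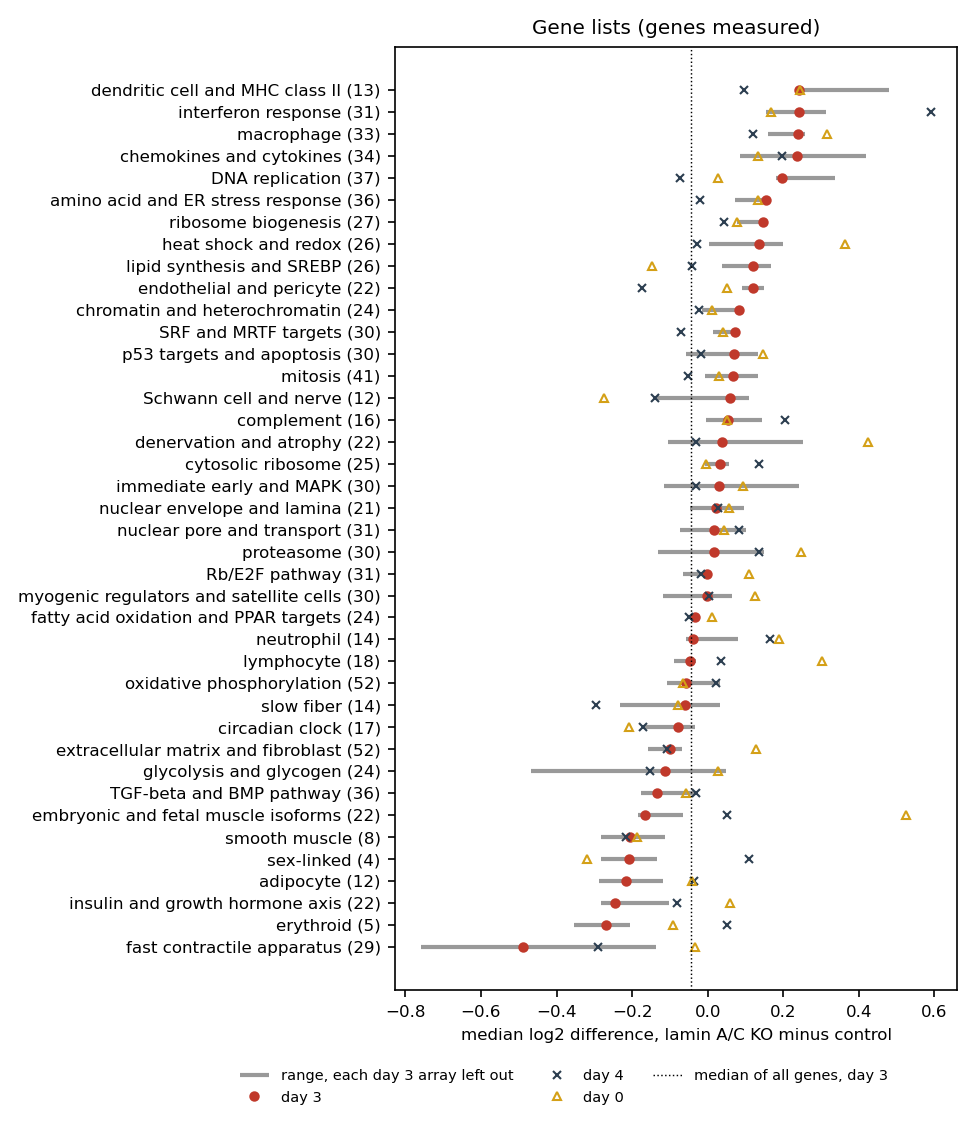
Median difference (log2, KO minus control) of 40 gene lists (number of genes measured in parentheses) on day 3 (filled circles), day 4 (crosses) and day 0 (triangles), with grey bars for the range on day 3 as each array was left out and a dotted line at the median of all genes, -0.04. Fast contractile genes lie lowest at -0.49 with a bar from -0.76 to -0.14.

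Next, the day 3 differences were set beside those of the other days. On day 0, in muscle with no injection, 84 genes were higher in the KO, 0.752% of genes tested, and 16 lower, 0.896% in all. On day 4, 5 were lower and 0 higher, 0.0448% (at an unadjusted p under 0.05, 540 genes). Of the 84, 57 had a positive estimate on day 3, beside 43.6% of all genes tested, and 0 were called there. Their median was 1.18 on day 0 and 0.12 on day 3. These genes were chosen by their day 0 values, so a smaller difference on day 3 was favoured in advance. Of the 16 lower genes 11 were negative on day 3, and Lmna alone was called. Across all genes the day 3 differences correlated with those of day 0 at r = 0.134 and with those of day 4 at r = 0.069, a description over 11164 genes that are not independent.

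A test of the change itself, the day 3 difference minus the day 0 difference, passed for 19 genes, 0.170% of those tested (limma, adjusted p under 0.05), 18 of them negative. Of the 19, 15 were higher in the KO on day 0 past the threshold, as were 84 (0.752%) of all genes tested. The 2 tests share the day 0 arrays, so a high day 0 difference in itself favours a negative change here. The embryonic and fetal isoform list, with 22 of the 11164 genes tested, held 7 of the 19. Sln, sarcolipin, an inhibitor of the sarcoplasmic reticulum calcium pump, read 7402, 4958 and 7107 in the KO and 711 and 667 in the control arrays on day 0, but 1787, 1921 and 2143 against 3397 and 2839 on day 3. From day 0 to day 3 it rose in the control, by 2.12 ± 0.24, and fell by 1.70 ± 0.19 in the KO, so that the order of the genotypes turned by estimate. The change was -3.82 ± 0.30 (adjusted p = 3.3e-07).

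Myh8, Myl4 and Tnnt2, a neonatal myosin, an embryonic light chain and the cardiac troponin T of immature muscle, were likewise higher in the KO on day 0 and not on day 3, although these genes rose to day 3 in both genotypes. Myh8 read 534, 636 and 773 in the KO against 210 and 195 on day 0, a difference of 1.52 ± 0.20, where on day 3 it was -0.64. Myl4 moved from 1.80 ± 0.21 on day 0 to -0.18 ± 0.21 on day 3, and Tnnt2 from 1.46 ± 0.21 to -0.20 ± 0.21. Ankrd1, a stretch-responsive protein of the titin filament, read 1354 to 1891 in the KO on day 0 and 1391 to 1866 on day 3, while the control rose from 240 and 338 to 1185 and 2127. Serpinb1a read 246 to 327 in the KO on day 0 against 10 and 20, both under the floor, at least 2.80-fold higher, and 176 to 328 on day 3 against 617 and 687. The other genes of this set were Uchl1, S100a4, Hspa1b, Sh3bp4, Cyb5r3, Sat1, Mustn1, Carhsp1, Igf2, Tax1bp1, Cpe and Lmna on the negative side, and Arhgap27 alone on the positive side. For Lmna, the KO lay near the floor on both days while the control rose.

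**Figure D5:**
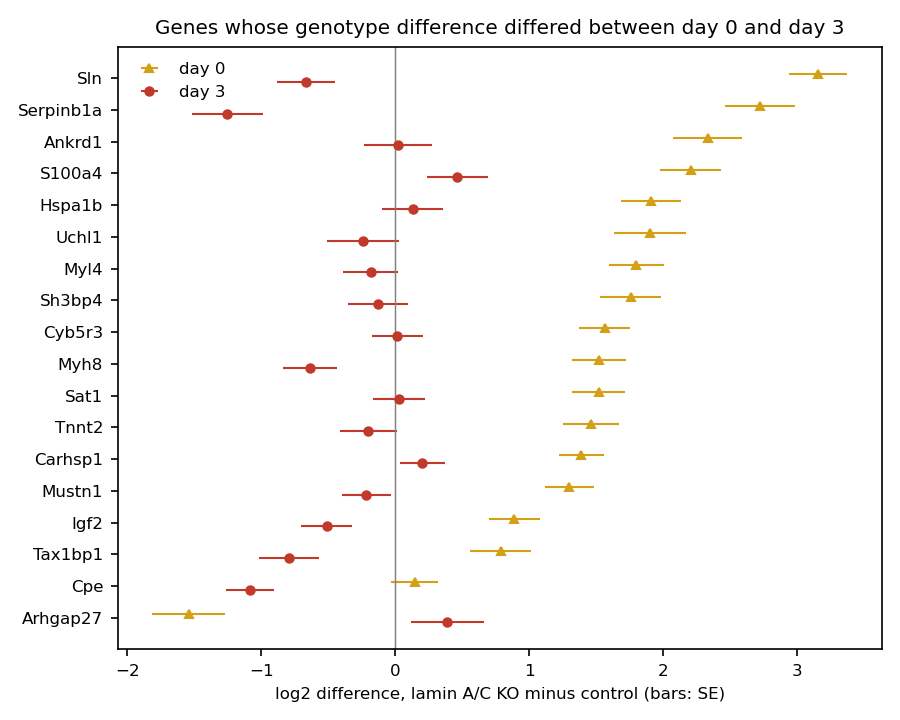
Log2 difference between KO and control on day 0 (triangles) and day 3 (circles) for 18 of the 19 genes whose differences differed between the days (Lmna left out for scale), with bars of 1 SE. Sln moves from 3.16 to -0.67 and Arhgap27 from -1.54 to 0.39.

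Between days 3 and 4 the genotype difference changed for 1 gene, 0.00896% of those tested. Myh7, slow myosin, read 220, 163 and 313 in the KO and 254 and 251 in the control arrays on day 3. On day 4 it read 117, 110 and 124 against 1066 and 617. The change was 2.36 ± 0.35 (limma adjusted p = 0.013), set by the day 4 difference of -2.50 ± 0.25.

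The change from day 0 to day 3 was also computed within each genotype, from the same day 3 arrays. In the control 2244 genes rose, 20.1% of genes tested, and 1580 fell, 14.2%, in all 34.3%, and in the KO 2613 rose and 2189 fell, 43.0%. Both genotypes shared 1919 rising genes, 85.5% of the control's and 73.4% of the KO's, and 1380 falling genes, 87.3% and 63.0%. Of genes that rose in the control 6 fell in the KO, and none of those that fell in the control rose. The KO group had 3 arrays at each time and the control 2. All 29 fast contractile genes fell in each genotype, with medians of -1.72 in the control and -2.30 in the KO, and 31 of 33 macrophage genes rose in the control and 32 in the KO. The embryonic and fetal isoform list, by contrast, had a median change of 1.24 in the control and 0.16 in the KO, after a higher KO level on day 0 for 9 of its genes. In all 14 of 22 rose and 3 fell in the control, and 9 rose and 5 fell in the KO.

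Lamin A/C KO and emerin KO muscle on day 3 differed at 1111 genes, 9.95% of those tested, with 669 higher and 442 lower in the lamin A/C KO. The emerin KO arrays had Gapdh 3'/5' ratios of 3.62 to 6.09 against 1.21 to 1.64, and with the ratio as a covariate the counts were 17 and 13. Aspn was higher in the lamin A/C KO by 1.17 ± 0.20 (limma adjusted p = 0.0010), with emerin KO arrays at 208, 260 and 300, whereas Cpe differed by 0.28 ± 0.16 (adjusted p = 0.30), with emerin KO arrays at 490, 420 and 601. Sln was higher by 2.92 ± 0.19, at 264, 212 and 217 in the emerin KO. Cap1, an actin-binding protein, was higher by 2.59 ± 0.17. The 5 lowest differences were those of Lmna, Trim34a, Chad, Slfn8 and Aoah. For Lmna (probe set 1421654_a_at), Trim34a and Aoah every lamin A/C KO array lay under the floor, which gives at least 45.0-fold, 3.99-fold and 2.15-fold lower levels. The other Lmna probe sets did not share this bound. In the lamin A/C KO against the emerin KO, 1425472_a_at read 902 to 1039 against 1948 to 2724. There, 1426868_x_at read 307 to 619 against 256 to 318, and 1452212_at 311 to 456 against 37 to 158. Chad and Slfn8 differed by -2.40 ± 0.59 and -2.08 ± 0.33, with most lamin A/C KO arrays under the floor.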

How the data were processed

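Affymetrix arrays of mouse gastrocnemius RNA carried 22690 probe sets. The authors deposited intensity values, 1 MAS5 signal per probe set and array on a linear scale, per the submitters' processing notes (which name no version). The deposited trimmed means were 150.04 to 150.06, so each array was multiplied by 3.332 to a 2% trimmed mean of 500 and log2(signal + 32) was taken. Groups came from the titles. Each of 12393 genes was represented by its brightest probe set, named from the platform annotation (691 probe sets with several symbols and 1555 with none were left out). Genes at 100 or more on at least 2 of 23 arrays were tested: 11164. limma 3.58.1 in R 4.3.3 fitted all 9 groups with an intensity trend (14 residual and 7.148 prior degrees of freedom). Adjusted p is Benjamini-Hochberg over all genes within each of 8 comparisons, threshold 0.05, with fold changes on the log2(signal + 32) scale, which understates changes of dim genes. The code was tested on simulated data. Depth does not apply to arrays: their number limits the precision.

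Named were Lmna and Emd, called genes with arrays that do not overlap (up to 15 a direction), up to 2 members with the smallest p of each of 40 lists without a call (1109 symbols, 992 on the array), nuclear envelope genes, markers, and the 5 largest changes of each other test. Members and lists were chosen with earlier results of these data known. Alternatives covered scaling, pseudocount, filter, probe set choice, trend, replicate block, arrays fitted, Gapdh ratio and leaving out each array. Replicate numbers recur across groups and were not treated as pairs in the main fit, but whether they pair the samples could not be decided.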

Additional observations from a re-analysis of the deposited data

Results flagged for a closer look

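The genotype difference on day 3 differed from that on day 0, by the limma interaction test, for 19 genes (log2, day 3 minus day 0). Serpinb1a (-3.98), Sln (-3.82), Myh8 (-2.16) and Myl4 (-1.98) passed under every one of 22 alternative settings. The control arrays of Serpinb1a on day 0 (20 and 10) lay under the floor of 100, and its change ranged from -5.53 to -2.55 over the settings. Further negative changes were those of Lmna (-2.34), Ankrd1 (-2.31), Uchl1 (-2.14), Sh3bp4 (-1.89), Hspa1b (-1.78), S100a4 (-1.74), Tnnt2 (-1.66), Tax1bp1 (-1.58), Cyb5r3 (-1.55), Mustn1 (-1.52), Sat1 (-1.49), Igf2 (-1.40), Cpe (-1.23) and Carhsp1 (-1.19). The 1 positive change was that of Arhgap27 (1.93). Of these, Carhsp1 and Tax1bp1 passed in 6 of 22 settings, Arhgap27 and Cpe in 9, Igf2 and S100a4 in 12, Tnnt2 in 14, Hspa1b and Sat1 in 15, Cyb5r3 in 17, Mustn1 and Uchl1 in 18, Sh3bp4 in 19, and Ankrd1 and Lmna in 21. The difference on day 3 also differed from that on day 4 for Myh7 (2.36), which passed in 16 of 22 settings. The change of Lmna depends on the floor of the signal, since 5 of 6 KO arrays of both days were under 100 on the probe set used, 1421654_a_at.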

How the results depend on the processing

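The day 3 counts are small and move with 1 or 2 genes. Genes higher numbered 0 in the reported fit, 1 with quantile normalization, median scaling, control and lamin A/C KO arrays only, or each probe set tested (chosen after seeing the data, and there the 1 is the Lmna probe set 1452212_at, not a further gene), 2 with the filter on the compared arrays or the mean of all probe sets, and 0 to 3 with 1 array left out. Genes lower numbered 3, against 1 with median scaling, no intensity trend or only the compared groups, 5 with control and lamin A/C KO arrays only, and 1 to 4 with 1 array left out. Of 1456 values of the 86 genes named for day 3, 1426 kept their side of the threshold, 17 lost a call and 13 gained one. The sign changed in 3, all of Emd, whose difference was near 0 and not called. No called value reversed.

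With the replicate number as a block, the day 3 fall was called for 1 gene, Lmna, with adjusted p of 0.061 for Aspn and 0.056 for Cpe. Same-numbered KO and control arrays had residual correlations of 0.063 and -0.015, against 0.015 and -0.063 for other-numbered arrays. With 2 control arrays, their residuals mirror each other, so these values cannot show whether the numbers pair the samples. The main fit did not treat them as pairs.

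On day 0, genes higher numbered 41 (median scaling), 55 (no trend), 42 (compared groups only) and 45 to 60 (1 array left out) in place of 84, and genes lower 9, 26 (mean of probe sets), 8 (compared groups only), 39 (control and lamin A/C KO only), 28 (Gapdh ratio) and 3 to 16 in place of 16. On day 4, genes lower numbered 3 with control and lamin A/C KO arrays only, 9 with each probe set tested and 3 to 6 with 1 array left out, and genes higher 0 to 1. The change between days 3 and 0 passed for 8 (median scaling), 9 (no trend) and 6 to 17 genes (1 array left out), fewest without control day 3 replicate 2, and that between days 3 and 4 for 0 (no trend, compared groups only), 3 (control and lamin A/C KO only) and 0 to 2. Against emerin KO, genes higher numbered 17 with the Gapdh ratio and 359 to 636 with 1 array left out, and genes lower 13, 239 (median scaling) and 201 to 424. The setting with control and lamin A/C KO arrays only was not run there. The cause of these shifts was not tested. The 2 control arrays on day 3 limit every day 3 value, and a setting that leaves out 1 assumes the other varies like the other groups.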
